A study of Brassica rapa with 5 samples.

Results

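The genes described here are 60 Brassica rapa genes whose leaf transcript level was at least 2-fold higher under Zn deficiency and at least 2-fold lower under Cd exposure than in the control. They were drawn from 10807 genes with a mean of at least 5 TPM over 5 conditions, out of 29183 genes listed in any condition. TPM stands here for tags per 1000000 clean tags, and a change is the difference of log2(TPM + 1) from the control, which understates the change of low genes. Genes at least 2-fold higher under both Fe deficiency and Zn excess, or at least 2-fold lower under both, were left out by the rule, which removed 2 genes. The genes were thus chosen by their measured mean levels in Zn deficiency, Cd exposure and the control, and these values are given as a description with no test.

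The data were digital gene expression profiles, a method that counts short sequence tags for each gene, from leaves of the accession R-o-18 grown in hydroponics. All plants grew for 14 days at 20 °C by day and 15 °C by night in a solution that held 3 µM Fe and 2 µM Zn and was free of Cd. Control plants stayed in that solution, and the other plants received 0.05 µM Fe (Fe deficiency), 0.005 µM Zn (Zn deficiency), 50 µM Zn (Zn excess) or 1 µM Cd (Cd exposure) for 7 days. Zn was given as a sulphate, Cd as a sulphate and Fe as Fe(Na)EDTA. The first expanded leaf pair was taken, with 3 replicates of 3 plants in each condition, so a library stands for a pool of plants.

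Zn is a cofactor of many plant enzymes and of transcription factors, and plants short of Zn raise uptake transporters of the ZIP family in Arabidopsis. Cd has no known nutritional role in this species, and it can enter plants through transporters for Zn and Fe. In Arabidopsis, Cd exposure disturbs Fe supply to the shoot, so Fe and Cd responses are often compared. None of the 60 identifiers was matched to a name in the annotation table used here, so no gene below carries a name or a role, and neither gene families nor markers of leaf cell types could be counted among them. In whole leaves, fewer cells of a type and less RNA per cell cannot be told apart.

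Libraries that stood apart enter the control and Cd exposure values of many of the 60 genes. Each condition was available as the mean of 3 libraries, but the tag mean and the TPM mean weight the libraries differently, and this gave the clean-tag total of each library (5575675 to 5997201 over the 15 libraries). It also gave limits on the share of a gene's tags that came from the library with the fewest clean tags in the control and in Fe deficiency, and exact tags per library for low genes. In the control, the library of 5637738 clean tags held more than its equal share of the tags of most of the 60 genes. In Cd exposure, the library of 5764028 clean tags, the middle one of the condition, did so for most of the low genes that could be solved. Both are set out below with the values without them where these could be had. What sets these libraries apart was not tested.

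Under Cd exposure, each of the 60 genes had its lowest level of the 5 conditions. The highest level was in Zn deficiency for 35 genes, in Fe deficiency for 23 and in Zn excess for 2. The rule already places Cd exposure below the control and the control below Zn deficiency, so much of this order follows from the choice. Shares over all genes are not given here for these counts. The median change was 1.29 in Zn deficiency (range 1.00 to 2.64) and -1.42 in Cd exposure (range -3.14 to -1.01), against -0.01 and -0.07 over all 10807 genes. At least 2-fold changes made up 2.66% of all genes for higher levels in Zn deficiency and 2.92% for lower levels in Cd exposure, and these contrasts were used in the choice. Mean levels ran from 5.38 to 1579 TPM, with 8 genes over 100 TPM and 18 under 20 TPM. TPM was not divided by gene length, so levels are compared here within a gene and not between genes.

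**Figure D1:**
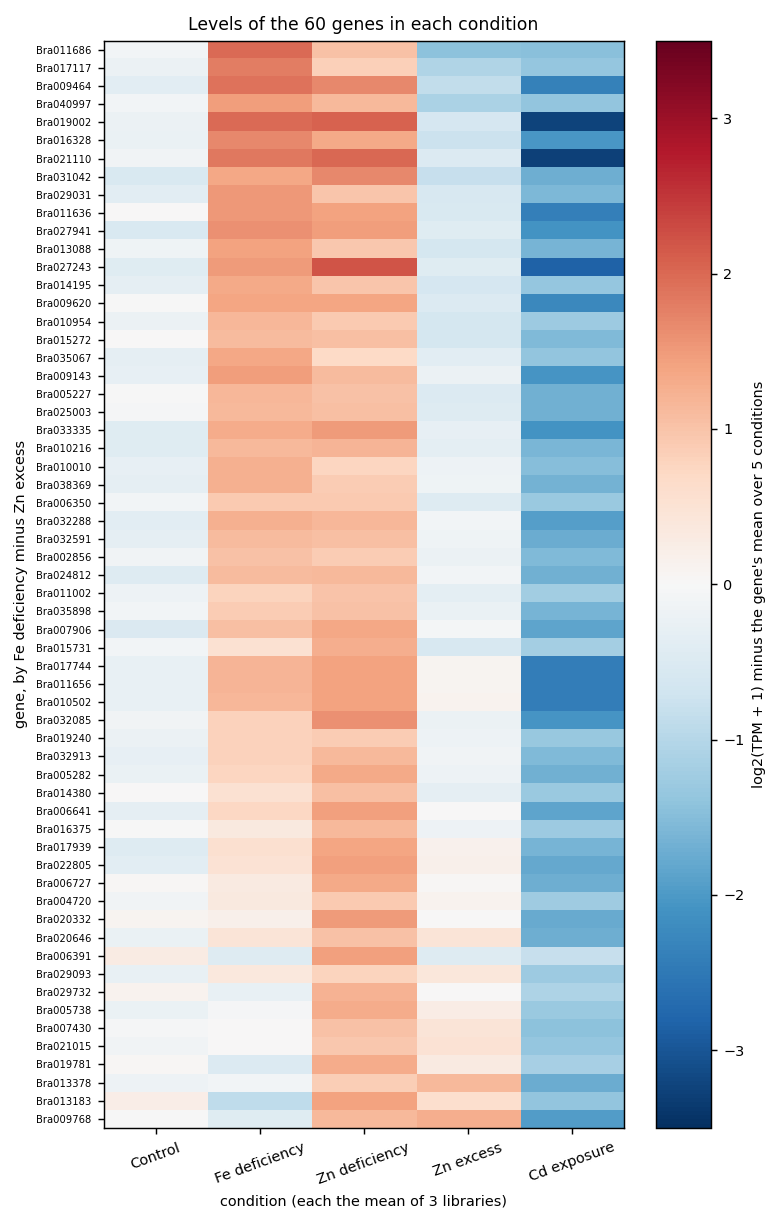
Level of each of the 60 genes (rows) in the 5 conditions (columns), as log2(TPM + 1) minus the gene's mean over the 5 conditions, with red above and blue below that mean. Rows are ordered by Fe deficiency minus Zn excess. The Cd exposure column is the lowest for all 60 genes, which the choice of genes favours. The Fe deficiency column runs from above the Zn excess column at the top to below it at the bottom.

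The span from Zn deficiency to Cd exposure was widest in Bra019002, at 191 TPM under Zn deficiency, 180 under Fe deficiency, 39.4 in the control, 29.8 under Zn excess and 3.87 under Cd exposure. Bra021110 had 119 TPM under Zn deficiency, 106 under Fe deficiency, 26.1 in the control, 20.2 under Zn excess and 2.08 under Cd exposure. Bra027243 had 217 TPM under Zn deficiency, 133 under Fe deficiency, 34.0 in the control, 34.0 under Zn excess and 5.61 under Cd exposure. In these 3 genes both deficiencies were high, Zn excess lay near the control and Cd exposure lay far below it. Their Zn deficiency level was 38.6-fold (Bra027243) to 57.1-fold (Bra021110) the Cd exposure level. Changes against the control were 2.15 (SE 0.884) in Zn deficiency and -3.14 (SE 0.645) in Cd exposure for Bra021110, and 2.25 (SE 0.764) and -3.05 (SE 0.505) for Bra019002. Without the control library of 5637738 clean tags they were 3.32 and -1.96 for Bra021110, and 3.15 and -2.15 for Bra019002. Bra009464 had a similar pattern at a low level, with Fe deficiency slightly above Zn deficiency: 22.6 TPM under Zn deficiency, 26.5 under Fe deficiency, 4.62 in the control, 3.04 under Zn excess and 0.405 under Cd exposure.

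Among the next genes by span, Bra011636 had 151 TPM under Zn deficiency, 160 under Fe deficiency, 56.5 in the control, 38.0 under Zn excess and 9.72 under Cd exposure. Bra009620 had 226 TPM under Zn deficiency, 228 under Fe deficiency, 86.2 in the control, 61.8 under Zn excess and 17.4 under Cd exposure. In both, the levels in the 2 deficiencies lay close together. In Bra032085, Fe deficiency (36.5 TPM) lay between the control (18.8 TPM) and Zn deficiency (63.8 TPM), with 17.8 TPM in Zn excess and 4.16 in Cd exposure. Bra010502, Bra011656 and Bra017744 had the same level in the control (20.3 TPM), Fe deficiency (56.6 TPM) and Cd exposure (3.77 TPM). They had fractional tags, the form that tags divided among several genes would take, and cannot be counted as separate observations: with them taken as 1, the genes number 58. Fractional tags occurred in 21 of the 60 genes (35.0%), against 37.5% of all genes kept.

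The 8 genes with the highest mean TPM, Bra009620 above among them, did not share 1 pattern. Bra013183 had 3353 TPM under Zn deficiency, 680 under Fe deficiency, 1487 in the control, 1889 under Zn excess and 484 under Cd exposure. Bra013088 had 938 TPM under Zn deficiency, 1303 under Fe deficiency, 439 in the control, 320 under Zn excess and 158 under Cd exposure. Bra013378 had 308 TPM under Zn deficiency, 158 under Fe deficiency, 148 in the control, 370 under Zn excess and 49.5 under Cd exposure. Fe deficiency was thus the highest condition for Bra013088, below the control for Bra013183 and near the control for Bra013378. Bra027941 followed Bra013088, with 325 TPM under Zn deficiency, 360 under Fe deficiency, 81.1 in the control, 87.2 under Zn excess and 26.8 under Cd exposure. Bra006641 had 237 TPM under Zn deficiency, 145 under Fe deficiency, 69.6 in the control, 88.5 under Zn excess and 23.3 under Cd exposure. In Bra029732 and Bra007430, Fe deficiency stood within 2-fold of the control: 99.8 against 131 TPM and 93.4 against 89.1 TPM. Their Zn deficiency levels were 282 and 186 TPM, their Zn excess levels 122 and 125 TPM, and their Cd exposure levels 56.7 and 33.3 TPM.

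Some genes lay close to the limits of the choice. In Zn deficiency, the nearest inside were Bra006350 (change 1.00), Bra035067 (1.00) and Bra014380 (1.01), and the nearest outside were Bra012779 (0.999), Bra002709 (0.985) and Bra006441 (0.978). In Cd exposure, the nearest inside were Bra029093 (-1.01), Bra011002 (-1.04) and Bra014195 (-1.05), and the nearest outside were Bra006235 (-0.984), Bra033413 (-0.977) and Bra040586 (-0.970). The standard errors of the inside changes, 0.343 to 0.555 for the 3 genes in Zn deficiency and 0.190 to 0.241 for the 3 in Cd exposure, were wider than the gaps across the limits.

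Fe deficiency against Zn excess asked how the 60 genes behave when the control, Zn deficiency and Cd exposure are set aside. The fold limits for Zn deficiency and Cd exposure did not use these libraries, but 2 genes were left out through them, and the minimum of 5 TPM was a mean over all 5 conditions. Bra002856, Bra010010, Bra017117 and Bra019240 would not have passed that minimum without their Fe deficiency level, so their differences are values with no support from the test. Most of the genes were higher in Fe deficiency: 50 of 60 lay above 0, against 60.6% of all genes, and 37 were at least 2-fold higher, against 3.74%. By limma, with the spread between libraries recovered as above and Benjamini-Hochberg adjustment over 10807 genes, 16 of 60 rose at an adjusted p under 0.05, against 2.21% of all genes. Another 3 fell, against 0.592%. With the minimum taken over the control, Zn deficiency and Cd exposure alone, 56 of the genes remained. Of these 56, 34 were at least 2-fold higher (3.42% of 10541 genes), 13 rose (1.89%) and 3 fell (0.550%), and Bra009464 and Bra016328 no longer passed (adjusted p = 0.0503 and 0.0540, limma). The median difference was 1.17, against 0.09 over all genes, and the median standard error was 0.362, against 0.270. The other 41 genes did not pass the test, which does not show that their levels were equal.

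The widest difference was in Bra011686, at 27.3 TPM in Fe deficiency and 1.61 in Zn excess, with 5.71 in the control, 13.4 in Zn deficiency and 1.56 in Cd exposure. It was 3.44 higher in Fe deficiency on the log2(TPM + 1) scale (SE 0.399, adjusted p = 0.00184, limma). Its 28 Zn excess tags lay 3, 18 and 7 in the libraries of highest, middle and lowest total. Their coefficient of variation between libraries was 0.832, against 0.234 in the recovered spread that the test used for Zn excess. In the control and Cd exposure the recovered value of this gene was the larger one (0.667 against 0.545 and 0.303 against 0.287). Bra017117 had 15.0 TPM in Fe deficiency against 1.27 in Zn excess, a difference of 2.82 (SE 0.406) given without its test, since its mean without Fe deficiency was 3.11 TPM, with 3.01 TPM in the control, 7.35 in Zn deficiency and 0.808 in Cd exposure. In both genes Fe deficiency, not Zn deficiency, was the highest condition, and Zn excess lay nearer to Cd exposure than to the control. Bra040997 (48.2 TPM under Zn deficiency, 60.9 under Fe deficiency, 20.2 in the control, 9.47 under Zn excess and 7.64 under Cd exposure) had this order too, with a difference of 2.56 (SE 0.541, adjusted p = 0.0267, limma).

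Bra009464 was 2.77 higher in Fe deficiency (SE 0.664, adjusted p = 0.0477, limma) and Bra016328 2.44 higher (SE 0.587, adjusted p = 0.0490, limma), both close to the threshold. Bra016328 had 38.9 TPM under Zn deficiency, 50.4 under Fe deficiency, 12.5 in the control, 8.50 under Zn excess and 2.83 under Cd exposure. Bra019002 missed the threshold at nearly the same size, 2.56 (SE 0.651, adjusted p = 0.0620, limma), and so did Bra021110 at 2.34 (SE 0.759, adjusted p = 0.150, limma). Bra011636 passed at 2.05 (SE 0.309, adjusted p = 0.00528, limma) and Bra013088 at 2.02 (SE 0.417, adjusted p = 0.0245, limma). The spread was averaged over the 5 conditions, the control included, and Bra019002 and Bra021110 were among the genes whose control libraries differed most. With the spread of Fe deficiency and Zn excess alone, 36 genes rose in place of 16, against 3.62% of all genes, and Bra019002 and Bra021110 were among them (adjusted p = 3.09e-06 and 2.13e-05, limma). When all listed genes were fitted with no minimum level, 3 rose, against 0.195% of all genes, and 0 fell. Bra009464, Bra016328, Bra040997, Bra013088 and the 3 falling genes were among the calls lost (adjusted p = 0.143 to 0.312, limma). In Zn excess the middle library has 7.52% of the weight of the top one in the recovered spread, so its deviations are largely missed there.

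The 3 genes that fell were Bra009768, Bra013183 and Bra013378. Bra009768 had 86.0 TPM under Zn deficiency, 28.2 under Fe deficiency, 37.8 in the control, 93.6 under Zn excess and 9.21 under Cd exposure. It was lower in Fe deficiency than in Zn excess by a difference of -1.70 (SE 0.369, adjusted p = 0.0303, limma). Bra013183 differed by -1.47 (SE 0.332, adjusted p = 0.0347, limma) and Bra013378 by -1.22 (SE 0.267, adjusted p = 0.0303, limma). In all 3 genes Zn excess stood above the control, by a change of 0.35 in Bra013183, 1.29 in Bra009768 and 1.31 in Bra013378. With the Fe deficiency mean taken without its library of 5640661 clean tags, none of the 3 passed the threshold (adjusted p = 0.0505 to 0.0902, limma). The differences were then -1.60 in Bra009768, -1.29 in Bra013183 and -1.21 in Bra013378. The spread in that test was still that of all libraries, and fewer libraries also widen the standard error. Bra019781 had the next lowest difference, -0.80 (SE 0.351, adjusted p = 0.331, limma), from 4.80 TPM in Fe deficiency and 9.07 in Zn excess, with 7.29 in the control, 19.0 in Zn deficiency and 2.66 in Cd exposure.

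**Figure D2:**
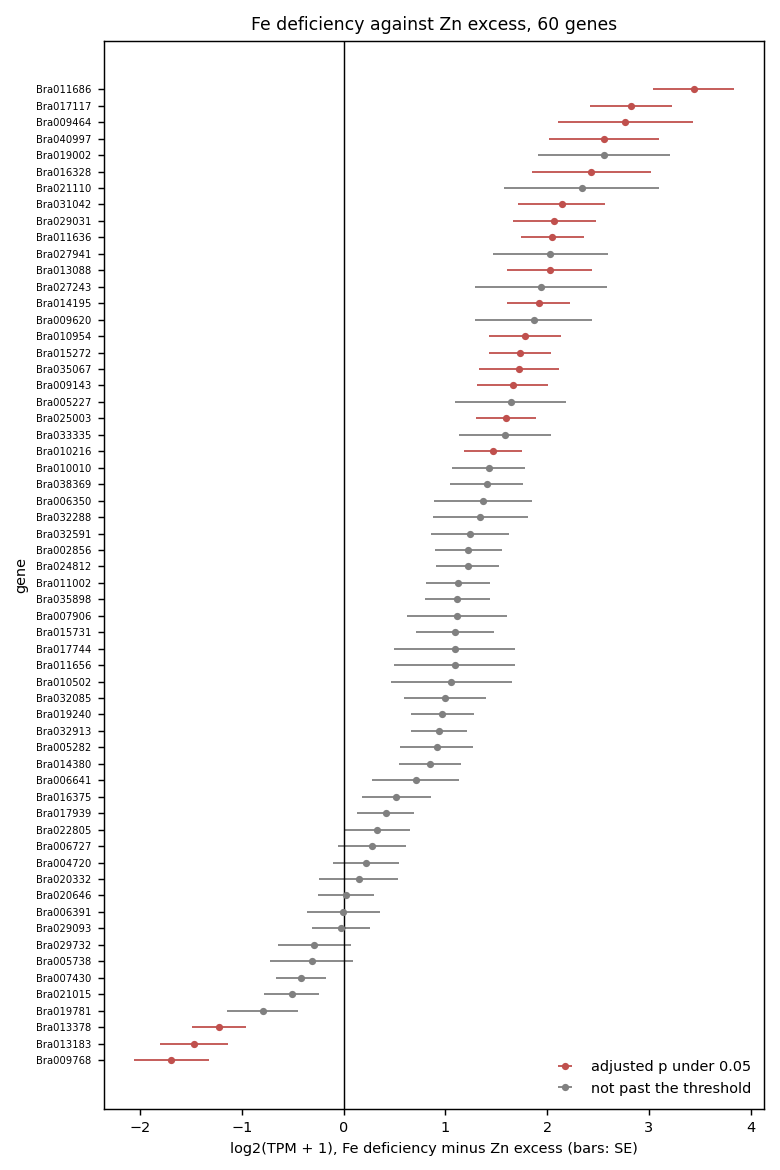
Difference in log2(TPM + 1), Fe deficiency minus Zn excess, for each of the 60 genes, with bars of 1 standard error and red for an adjusted p under 0.05 (limma). Of the 60 points, 50 lie to the right of 0, 16 of these pass the threshold, and 3 of the 10 points to the left pass it.

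Against the control, which the choice of genes also used, Fe deficiency values are given with the background and are not independent of the choice. In Fe deficiency, 55 of the 60 genes lay above the control (68.9% of all genes) and 5 below it (31.1%). Of the 60, 38 were at least 2-fold higher (3.72%), 21 lay within 2-fold and 1, Bra013183, was at least 2-fold lower (1.29%). At an adjusted p under 0.05 (limma), 33 rose (7.47% of all genes) and 1 fell (2.00%). Both the 38 and the 33 include Bra002856, Bra010010, Bra017117 and Bra019240. These genes passed the minimum level only through Fe deficiency, so their rise there carries no support. The median change was 1.18, against 0.17 over all genes. In Zn excess the genes lay on both sides of the control, 31 above (59.0% of all genes) and 29 below it (41.0%), with a median change of 0.00, against 0.07 over all genes. Only 2 were at least 2-fold higher, Bra009768 and Bra013378 (0.888% of all genes), and 2 at least 2-fold lower, Bra011686 and Bra040997 (1.11%), which leaves 56 within 2-fold. At an adjusted p under 0.05 (limma), Bra013378 alone rose (adjusted p = 0.0208, with 0.574% of all genes rising) and 0 fell (0.611%). That the others did not pass does not show that their levels equalled the control.

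The control libraries differed from each other in these genes. The library of 5637738 clean tags held between 41.0% and 49.5% of a gene's control tags at the median, against 26.4% to 36.9% over all genes, where an equal share is 33.3%. Its share was above an equal share over the whole allowed range in 48 of the 60 genes, against 12.7% of all genes, and below it in 0 (23.3%). If the other libraries are taken as equal, its level was 1.76-fold theirs at the median, from 0.993-fold (Bra035067) to 6.89-fold (Bra009464). With the same assumption, it was the higher one on the log2(TPM + 1) scale in 59 of 60 genes, by a median of 0.76. Over all genes the median was -0.01, so it was nearly level with the others there. Genes that vary widely between libraries can also pass a 2-fold limit more easily, so this is a description of the 60 genes.

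**Figure D3:**
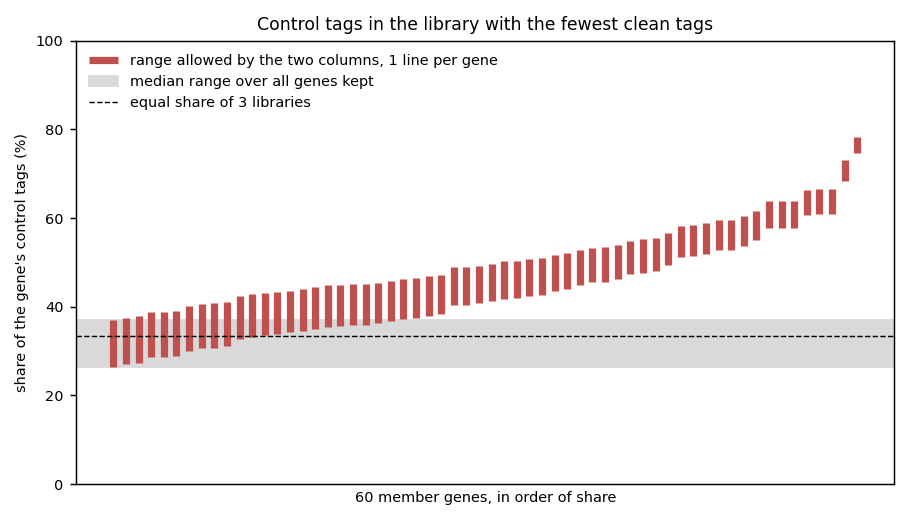
Share of each gene's control tags held by the control library with the fewest clean tags, in percent, 1 vertical line per gene spanning the range that the deposited columns allow, in order of share. The dashed line is the equal share of 33.3% and the grey band the median range over all genes kept (26.4% to 36.9%): 48 of the 60 lines lie wholly above the dashed line.

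In Bra021110 this library stood at 56.2 TPM and the others at 11.0, in Bra019002 at 76.8 and 20.7, and in Bra027243 at 66.2 and 17.9. For Bra009464 the exact tags were 12, 6 and 61 in the libraries of highest, middle and lowest total. The control means of these 4 genes therefore rest largely on 1 library, and the other libraries lay several-fold lower. Bra013378 (151 and 147 TPM), Bra007430 (91.3 and 88.0 TPM) and Bra035067 (19.5 and 19.7 TPM) had nearly the same level in that library and in the others. The exact tags could be solved for 12 of the 60 genes in the control, and 10 of these (83.3%) had their highest level in that library, against 26.7% of 2774 solved genes. Over 50% of the tags lay there in 4 of the 12, against 1.62%, and in the middle library in 0 of the 12, against 4.22%. Their coefficient of variation between the libraries was 43.8% at the median, against 21.3%.

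The tags of single genes show how the libraries divided. Bra017117 had 14, 9 and 29 control tags in the libraries of highest, middle and lowest total, Bra011686 had 31, 17 and 51, and Bra029031 had 35, 29 and 61. In these 3 genes the last library was the highest and the middle one the lowest. Bra021015 (41, 72 and 55 tags) and Bra022805 (22, 39 and 30 tags) were the 2 solved genes whose highest library was the middle one, and Bra019240 (20, 23 and 24 tags) was nearly even.

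Without that control library, the same rule chose 55 genes, of which 37 were among the 60. The median change of the 60 genes was then 1.58 in Zn deficiency and -1.07 in Cd exposure, in place of 1.29 and -1.42. With that library alone as the control, 31 genes were chosen, 24 of them among the 60, and the medians were 0.87 and -1.85. The median in Zn excess was then -0.53 in place of 0.00, so the place of Zn excess beside the control also depends on which control libraries are used. The medians in Fe deficiency, Zn deficiency and Cd exposure kept their direction under both alternatives. For Zn deficiency and Cd exposure this is close to fixed by the choice of the 60 genes, and the Fe deficiency change shares the same control.

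In Fe deficiency the library with the fewest clean tags, 5640661, went the other way. It held 24.2% to 30.7% of a gene's tags at the median, against 29.4% to 35.4% over all genes. Its share was below an equal share over the whole range in 42 of the 60 genes (35.7% of all genes) and above it in 5 (29.7%). Bra009464 had 12.7 TPM in that library and 33.4 in the others, and Bra011636 had 102.8 and 189 TPM. Tags were solved for 4 of the genes in Fe deficiency, and over 50% of them lay in the middle library for 1, Bra019781 with 17, 51 and 17 tags (2.03% of solved genes), and in the lowest-total library for 0 (3.24%). With the mean taken without the library of 5640661 clean tags, 13 genes rose in Fe deficiency against Zn excess in place of 16, against 1.92% of all genes. That test still used the spread of all libraries.

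Cd exposure tags per library were counted for the 21 of the 60 genes with up to 80 whole tags over the 3 libraries, all solved exactly. Some genes with more tags, such as Bra027243 (12, 74 and 11) and Bra014380 (31, 41 and 46), were solved too. They were left out of the counts, since not every gene with more tags has a single solution. The middle library held the highest level in 16 of the 21 (76.2%), against 55.2% of 665 solved genes, and over 50% of the tags in 13 (61.9%), against 12.9%. The lowest-total library held over 50% in 0 of them, against 2.11%. The middle library's median share was 55.4%, against 38.6%. The coefficient of variation between libraries was 61.0% at the median, against 30.7%. The recovered spread in the fit, to which the middle library adds almost nothing here, gave 30.2% for the same 21 genes. It lay below the spread of the solved tags in 15 of them and above it in 6. In the control it was the larger one, 53.9% against 43.8% for the 12 solved genes, and the standard errors average over the conditions.

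For Bra009464, the Cd exposure tags were 0, 7 and 0 in the libraries of highest, middle and lowest total. A count of 0 in a library allows up to 3 tags, 0.521 TPM, for counting error only, since tags carry no molecular identifier. Bra021110 had 4, 31 and 1 tags, and Bra019002 had 9, 50 and 8. In these 3 genes the low mean in Cd exposure still came mostly from 1 library, and the other libraries were near or below 9 tags. Bra016328 (9, 35 and 5 tags), Bra010010 (2, 16 and 2) and Bra032085 (18, 47 and 7) divided in the same way. Bra021015 (22, 16 and 23 tags) and Bra019781 (19, 16 and 11) did not.

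**Figure D4:**
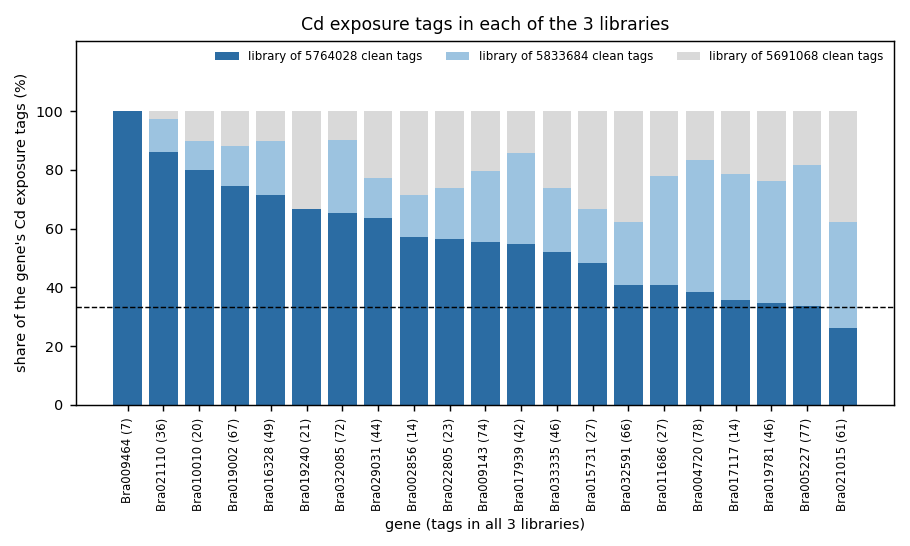
Share of each gene's Cd exposure tags, in percent, in each of the 3 libraries for the 21 genes whose tags could be solved, with the number of tags in brackets and the equal share of 33.3% as a dashed line. Dark blue is the library with the middle total, which holds over 50% of the tags in 13 genes and 100% in Bra009464.

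Tags of both the control and Cd exposure were solved for 12 genes. The library levels of the 2 conditions did not overlap in 8 of them and overlapped in 4, Bra009464, Bra010010, Bra015731 and Bra017939. The choice required a lower mean in Cd exposure than in the control, so a lack of overlap is largely built in. The share over all genes is not given here, and these counts are a description only. In Bra019781 the control libraries had 40, 38 and 49 tags and the Cd exposure libraries 19, 16 and 11, with no overlap. In Bra009464 the highest Cd exposure library (1.21 TPM) lay above the lowest control library (1.02 TPM), while the means were 4.62 and 0.405 TPM.

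In Zn deficiency and Zn excess exact tags were rarely unique. In Zn deficiency, the lowest-total library held 77 to 84 of the 125 tags of Bra017117, whereas the middle one held 68 to 83 of the 152 tags of Bra002856. In Zn excess, the middle library held 81 to 99 of the 148 tags of Bra016328 and 87 to 96 of the 165 tags of Bra040997, while the 53 tags of Bra009464 were 17, 33 and 3. The highest-total library led in Zn excess for Bra019240 (37 to 42 of 69 tags), Bra031042 (27 to 32 of 49) and Bra019781 (67 to 72 of 158), and the lowest-total one for Bra017117 (5, 8 and 9 tags). The middle library also led in Zn excess for Bra002856 (30 to 48 of 63 tags), Bra010010 (30 to 39 of 76) and Bra015731 (25 to 34 of 52). Bra029031 (45 to 63 of 107) and Bra011686 (18 of 28) divided likewise, and the limits of Bra022805 left its leading library undecided. No single library led in all of these genes in either condition, but in Zn excess the middle one led in most of those listed. Shares over all genes are not given here for this.

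The genes with the largest difference between control libraries also tended to have a large difference between Fe deficiency and Zn excess. Across the 60 genes, Pearson's r was 0.57 and Spearman's rho 0.56 between the control difference (fewest-tag library minus the others) and Fe deficiency minus Zn excess, against 0.10 and -0.05 across all genes. No library entered both measures, but all 60 points share the same 9 libraries, so they are not independent and no p-value is given. The 37 genes at least 2-fold higher in Fe deficiency than in Zn excess had a median control ratio of 2.14-fold between that library and the others, and the remaining 23 genes had 1.36-fold. In Cd exposure, over 50% of the tags lay in the middle library in 9 of 14 solved genes of the first kind and in 4 of 7 of the second.

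**Figure D5:**
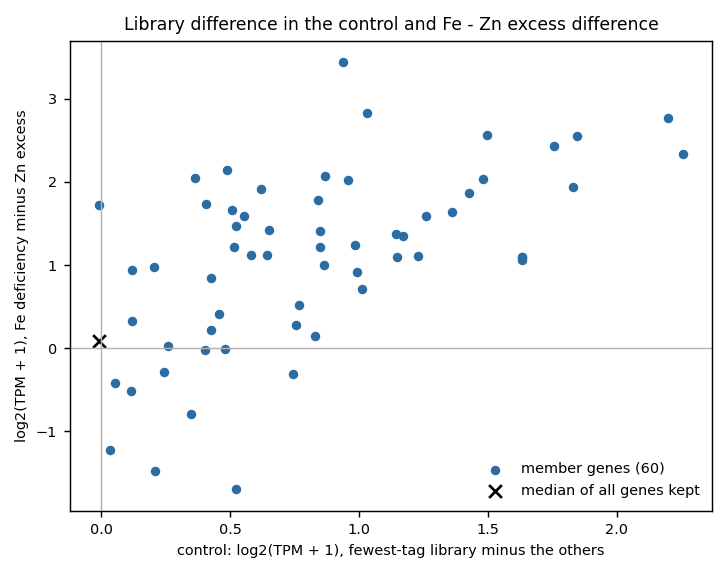
Difference between control libraries (fewest-tag library minus the others, horizontal axis) and Fe deficiency minus Zn excess (vertical axis), both in log2(TPM + 1), with 1 point per gene and a cross at the median of all genes kept. Points with a control difference of at least 1 lie above 0 on the vertical axis, and the 3 genes lowest on that axis have control differences of 0.03 to 0.52.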

How the data were processed

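Each of the 5 conditions was deposited as 1 table. Per the file headers, it holds a clean-tag number and a TPM for each gene. The tag numbers the authors deposited are estimated counts, the mean of 3 libraries and not always whole, and the deposited TPM is the same mean per 1000000 clean tags, scaled by the authors. Neither mapper nor build is given in the sources used here. Genes absent from a table were set to 0 tags.

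The clean-tag totals of all 15 libraries were recovered from the ways in which the tag mean and the TPM weight them, and ranged from 5575675 to 5997201 tags. Between 54.0% (Cd exposure) and 58.6% (Fe deficiency) of clean tags lay in genes. In genes of 3 to 44 tags kept aside, whole tags in 3 libraries fitted both columns for 92.2% to 94.1%, and for 15.1% to 29.3% with 1 total raised by 0.5%. The difference between the columns gave 1 estimate of spread per gene and condition. The library with the middle total weighs in it by 1.56% of the top one in Cd exposure, 2.54% in Zn deficiency, 7.52% in Zn excess, 60.8% in the control and 75.2% in Fe deficiency. Exact tags were counted only below 10 TPM in the control and Fe deficiency and up to 80 tags in Cd exposure, where 91.3% to 95.2% of genes had a solution and at least 99.0% of these only 1.

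Differences of log2(TPM + 1), with a pseudocount of 1, were tested with limma 3.58.1 in R 4.3.3 on that spread, averaged over the 5 conditions and moderated across 10807 genes (12.0 degrees of freedom in all), with Benjamini-Hochberg adjustment. Other steps used Python 3.11.15. p-values rest on the part of the spread between replicate pools of plants that the columns recover. In Zn deficiency, Zn excess and Cd exposure that part largely misses the pool of the middle library. The genes also vary together between libraries, so calls are not independent of each other. On simulated libraries (10804 genes, Fe deficiency minus Zn excess), 43% of 100 genes changed 2-fold and 100% of 100 changed 4-fold were recovered. In the same simulated libraries, 8 unchanged genes were called. These values hold for the spread set in the simulation. Whether they hold for the genes described here, many of which differ widely and together between libraries, was not tested. The members, the gene lists and the tests were chosen with earlier results of these data known. Named genes were the 10 with the widest span from Zn deficiency to Cd exposure, the 8 with the highest mean TPM, the 6 highest and 4 lowest for Fe deficiency minus Zn excess, and the 3 nearest on each side of both limits. Genes named for their tags per library, and Bra021110 and others named for a single value, were chosen after their values were seen. The lists of gene families and cell type markers were not applied, because 0 identifiers matched the RefSeq table (assembly CAAS_Brap_v3.01). For the same reason no sequence is shown. Alternatives covered the pseudocount, the minimum level, the scaling, the fold limit, fractional tags and the source of the spread. Those that leave out a library, or use 1 library as the control, or take the minimum over fewer conditions, were added after seeing the data.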

Additional observations from a re-analysis of the deposited data

How the results depend on the processing

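The number of genes chosen was 28 with a pseudocount of 5, 282 at 1.5-fold (56 of the 60 among them), 9 at 3-fold, 39 with no fractional tags, 55 without the control library of fewest tags and 31 with that library alone as the control. It stayed within 1.5 times of 60 with a pseudocount of 0.1 (77), no minimum (65), a minimum of 20 TPM (42), a minimum over the control, Zn deficiency and Cd exposure alone (56, added after seeing the data) and size factors (54). Genes higher in Fe deficiency than in Zn excess numbered 3 when all listed genes were fitted (0.195% of all genes), 10 of 42 at a minimum of 20 TPM (2.17%), 36 with the spread of those conditions alone (3.62%) and 13 without the Fe deficiency library of fewest tags (1.92%). Genes lower there numbered 0 with all listed genes fitted (0.0308%) and 0 without that library (0.333%). Against the control, Fe deficiency gave 9 higher (0.805%) and 0 lower (0.284%) with all listed genes fitted, 19 of 42 higher at a minimum of 20 TPM (7.74%), 18 higher with the spread of those conditions alone (3.30%), and 31 (5.42%) to 42 (6.67%) higher with 1 library left out. Zn excess gave 0 higher with all listed genes fitted (0.0925%). Median changes were 1.26 to 1.56 in Fe deficiency with 1 library left out, -1.07 in Cd exposure, 0.32 in Zn excess and 1.58 in Zn deficiency without the control library of fewest tags, and -1.85, -0.53 and 0.87 (with 0.73 in Fe deficiency) with it alone as the control. With a pseudocount of 5 the median in Cd exposure was -1.05. Of 97 such counts and medians, 75 stayed within these bounds. Among 248 tests of named genes for Fe deficiency minus Zn excess under an alternative, 216 kept their call, 9 passed newly and 23 no longer passed, with 0 reversed. The changes of named genes against the control were less steady: of 290 under an alternative, 201 stayed within their standard error and 89 moved beyond it. The cause was not tested beyond the fewer genes or libraries each alternative holds. Size factors move the median change of all genes in Fe deficiency by -0.17. Only the library of fewest tags in the control and in Fe deficiency could be left out, since the columns bound the share of the others too loosely. Tests with it left out changed the mean and the number of libraries. They took the other libraries as equal in level and still used the spread of all libraries. No paired analysis was possible because replicates were averaged before deposit and the columns carry no replicate number. Depth limits low genes most: 3 tags in 1 library are 0.512 to 0.523 TPM.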

Other observations

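The rule left out 2 genes because they were also at least 2-fold higher under both Fe deficiency and Zn excess. Bra003670 had 279 TPM under Zn deficiency, 200.1 under Fe deficiency, 35.6 in the control, 113 under Zn excess and 13.1 under Cd exposure. Bra024209 had 11.2 TPM under Zn deficiency, 11.5 under Fe deficiency, 4.67 in the control, 10.8 under Zn excess and 1.60 under Cd exposure. Cd exposure was the only condition in which either gene lay below the control.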
